A study of Mus musculus with 8 samples.

Results

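Interleukins, the CC and CXC chemokines and the receptors that bind them are a family of secreted signals and surface receptors, and this account follows the H3K27me3 that mouse embryonic stem cells carried over their genes. Members were the protein-coding RefSeq genes whose symbols begin with Il, Ccl, Cxcl, Ccr or Cxcr and a digit. Of 137 such genes, 100 lie on the chromosomes of the deposited table, and 93 of these had an interval whose span matched the gene, among 20287 genes (13214 of them protein-coding) with an interval in all. The 37 genes on other chromosomes and the 7 without a matching interval were not analysed here. The cells were E14tg2a embryonic stem cells of 129SV background that stably expressed cRAF-ErT2, a RAF kinase fused to a tamoxifen-responsive receptor domain. All cells came from medium with serum, LIF and 2 µM Chir99021, an inhibitor of GSK3, and then spent 24 h in medium with serum, LIF and 250 nM PD173074, which blocks FGF receptors. The groups were cells given 250 nM 4OHT for 2 h (2 h; clones A and B, 1 library each) and untreated cells (0 h; clones A and B, 1 library each). Chromatin was fixed in 1% formaldehyde for 10 min and precipitated with an antibody to H3K27me3; the 4 input libraries of the same cells were not analysed here, so values are counts and not enrichment over input.

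H3K27me3 is laid down by Polycomb repressive complex 2 and is found over silent genes, with the strongest domains in stem cells around CpG-rich promoters of developmental regulators. Interleukins and chemokines are made mostly by immune, epithelial and stromal cells. Chemokine ligands act through G-protein-coupled receptors to steer cell movement, and interleukins act through receptor chains coupled to JAK kinases or to MyD88 and IRAK proteins.

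The bases upstream of 4 members are printed to show how different the promoters of this family are. Cxcl12 and Cxcr4, a ligand and its receptor, were the densest members. Ccl20 differed most between the clones. Ccl25 had the most CpG in its upstream window and little of the mark over its interval, which overlaps that of LOC108167518. It also has another RefSeq start, 24381 bases inside the interval, with 0 CG upstream. Each line holds the 250 bases before the RefSeq start site (GRCm38.p6), 5′ to 3′ on the gene's own strand, with each CG in capitals. The windows are chr6:117168285-117168534 (plus strand) for Cxcl12, chr1:128592300-128592549 (minus strand) for Cxcr4, chr1:83116516-83116765 (plus strand) for Ccl20 and chr8:4324960-4325209 (plus strand) for Ccl25.
Cxcl12: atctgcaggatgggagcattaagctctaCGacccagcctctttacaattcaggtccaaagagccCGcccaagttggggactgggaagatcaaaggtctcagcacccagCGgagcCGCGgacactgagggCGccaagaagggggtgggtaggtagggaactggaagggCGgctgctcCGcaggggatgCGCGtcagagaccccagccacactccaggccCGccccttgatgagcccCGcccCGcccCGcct
Cxcr4: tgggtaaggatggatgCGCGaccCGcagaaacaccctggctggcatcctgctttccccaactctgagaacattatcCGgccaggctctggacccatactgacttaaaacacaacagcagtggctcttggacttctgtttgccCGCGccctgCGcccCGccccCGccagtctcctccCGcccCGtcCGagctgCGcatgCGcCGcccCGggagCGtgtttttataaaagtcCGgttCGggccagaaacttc
Ccl20: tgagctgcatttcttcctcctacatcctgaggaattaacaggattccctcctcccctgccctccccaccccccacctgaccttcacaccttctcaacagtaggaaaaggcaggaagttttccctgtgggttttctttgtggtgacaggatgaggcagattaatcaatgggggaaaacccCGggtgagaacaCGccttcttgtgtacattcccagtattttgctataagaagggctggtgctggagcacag
Ccl25: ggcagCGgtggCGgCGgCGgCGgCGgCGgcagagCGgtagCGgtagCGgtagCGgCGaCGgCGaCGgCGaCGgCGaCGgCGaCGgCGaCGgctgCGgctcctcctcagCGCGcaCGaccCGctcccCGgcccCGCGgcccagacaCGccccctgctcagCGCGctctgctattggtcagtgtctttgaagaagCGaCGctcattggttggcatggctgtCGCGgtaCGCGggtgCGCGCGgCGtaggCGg

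These windows hold 14 CG in Cxcl12, 19 in Cxcr4, 2 in Ccl20 and 45 in Ccl25. CG reads the same on both strands. A RefSeq promoter was found for 67 of the 93 members and for 10112 protein-coding genes. The members' median was 3 CG, against 10 over protein-coding genes, and 14.9% of members had 10 or more, against 52.8% of protein-coding genes. Most promoters of the family were thus poor in CpG, and Cxcl12, Cxcr4 and Ccl25 stand among 10 exceptions.

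The 4 libraries held between 70378127 and 92518605 counts in the table's columns; intervals overlap, so these are totals of the table and not read depths. Members had 18 to 20093 counts per library, with a median of 477.5, and 83 of 93 had at least 100 in every library. Density is given as counts per kb of interval, scaled to 1000000 counts in the column, and marked stands for at least 4 times the density of the median gene (a limit of 1.43). Lineage regulators that are silent in stem cells (Hoxa9, Hoxd10, Pax6, Gata2 and Sox17) had 8.11 to 15.3 times the median gene's density. The stem cell genes measured (Nanog, Sox2, Klf4 and Tet1) had 0.239 to 0.693 times. Genes of leukocytes (Ptprc, Cd3g and Itgam) had 1.10 to 2.28 times, and those of fibroblasts (Col1a2, Twist2 and Thy1) 2.25 to 6.04 times.

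As a family, the cytokine and chemokine genes carried H3K27me3 above the level of a typical gene but below that of the lineage regulators. Their median density was 0.568 ± 0.0201 (SD of the members' median over 4 libraries), which is 1.59 times the median gene, with quartiles of 1.10 and 2.21. Over all protein-coding genes the median was 0.80 times, with quartiles of 0.323 and 1.53. Of the members, 74 of 93 (79.6%) lay above the median gene, against 41.7% of protein-coding genes, and 30 (32.3%) reached 2 times the median gene, against 16.5%. Strong marking was rarer, with 8 of 93 members (8.60%) at 4 times the median gene, against 5.44% of protein-coding genes and 5.77% of all genes.

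Gene length does not differ between libraries, but it differs between the family and other genes, with medians of 9878 bp for the members and 18403 bp for protein-coding genes. Members shorter than 3000 bp had a median of 1.92 times the median gene (14 genes), against 1.00 for protein-coding genes of that length. From 3000 to under 10000 bp it was 1.45 for members (33 genes), against 0.911. From 10000 to under 50000 bp it was 1.62 (35 genes), against 0.644, and at 50000 bp or more 1.22 (11 genes), against 0.793. The members' median was higher in each of the 4 length classes. The share of marked genes was not. From 3000 to under 10000 bp it was 6.06% of members (2 of 33), against 12.7% of protein-coding genes. At 50000 bp or more it was 0 of 11, against 0.324%. Under 3000 bp it was 21.4% (3 of 14), against 9.09%. From 10000 to under 50000 bp it was 8.57% (3 of 35), against 3.62%.

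CXC chemokines, which draw neutrophils, lymphocytes and progenitor cells, were the ligand group with the most marked genes. Of 10 CXC ligands, 4 were marked and 9 lay above the median gene, with a median of 2.86 times. None of the 9 CC ligands measured was marked, 4 lay above the median gene, and their median was 0.915 times. The 37 family genes on chromosomes not covered are missing, so the contrast holds for the measured genes and not for the CC and CXC classes. The range of the 9 CC ligands ran from 0.400 for Ccl27a, a skin chemokine, to 2.97 for Ccl20, which attracts CCR6-bearing lymphocytes and dendritic cells.

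Cxcl12, the ligand of CXCR4 that retains stem and progenitor cells in their niches, was the densest member (chr6:117168535-117181368, plus strand). Its density was 2.39 and 2.56 at 2 h (clones A and B), against 2.38 and 2.37 at 0 h. Cxcr4 itself, on chr1:128588199-128592299 (minus strand), had 2.30 and 2.15 at 2 h, against 2.15 and 2.14 at 0 h. Both genes were near the same level in all 4 libraries, at 6.79 and 6.11 times the median gene on average for ligand and receptor.

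The neutrophil chemokines Cxcl1, Cxcl2 and Cxcl5 lie together on chromosome 5. Cxcl1 had 1.60 and 1.62 at 2 h, against 1.63 and 1.89 at 0 h (4.71 times the median gene). Cxcl5 had 1.47 and 1.44 at 2 h, against 1.79 and 1.68 at 0 h (4.46 times). Cxcl5 was the marked member nearest to the limit, and both of its 2 h libraries lay below both of its 0 h libraries. Cxcl2 was just outside at 3.52 times, after Il4i1, which encodes an amino acid oxidase, at 3.65 and Cxcr3, the receptor of Cxcl9 and Cxcl10, at 3.61.

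The cluster of 5 CXC genes from Cxcl5 to Cxcl2 spanned 1.42 to 4.71 times the median gene, so marked and moderate genes stood side by side within chr5:90759298-90905938. Cxcl10, an interferon-induced chemokine, had 1.86 and 1.82 at 2 h, against 1.87 and 1.76 at 0 h (5.11 times). Its interval lies inside that of Art3, which had 2.26 times the median gene, and the shared reads cannot be told apart.

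Among interleukin ligands, the 2 marked genes were Il11, an IL-6 family cytokine that signals through gp130, and Il24, of the IL-10 family. Il11 (chr7:4772378-4782857, minus strand) had 2.42 and 1.55 at 2 h, against 2.20 and 1.52 at 0 h, so the clone A libraries were higher than those of clone B at both times. Il24 had 1.91 and 1.89 at 2 h, against 1.70 and 1.77 at 0 h. The neighbours of Il24 in the IL-10 gene cluster were less dense: Il20 had 1.45, Il19 1.60 and Il10, the anti-inflammatory founder of the family, 2.51 times the median gene.

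The IL-1 family ligands, 6 of which (the antagonist Il1rn included) form a cluster on chromosome 2, held no marked gene and a median of 1.88 times the median gene. Il18, an inducer of interferon gamma, was the densest of the 9 at 3.28, and the inflammatory cytokines Il1a and Il1b had 1.99 and 1.95, with Il1rn at 1.48. Il6, the acute-phase cytokine, had 1.52. The homeostatic T cell cytokines Il15 and Il7 had 1.09 and 0.679 times the median gene.

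Receptors were slightly less dense than ligands, with a median of 1.52 times the median gene over 42 genes (2 marked), against 1.76 over 45 ligands and antagonists (6 marked). Besides Cxcr4, the marked receptor was Il10ra, the ligand-binding chain for IL-10, with 1.97 and 1.75 at 2 h, against 1.86 and 1.74 at 0 h (5.12 times). The 13 chemokine receptors ran from 0.449 (Cxcr6) to 6.11 (Cxcr4). The 3 IL-17 receptor genes measured, Il17re, Il17rc and Il17ra, had 3.17, 3.13 and 1.91 times the median gene, the highest median of any role group.

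The IL-1 receptor cluster on chromosome 1 was the most even stretch of the family. Its 6 genes (Il1r2, Il1r1, Il1rl2, Il1rl1, Il18r1 and Il18rap) spread over chr1:40084768-40551705 and held 1.42 to 1.85 times the median gene, with none marked. This is a level near that of the leukocyte gene Itgam (1.66 times).

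The 6 least dense members were Il18bp, a secreted trap for IL-18, at 0.236 times the median gene, Ccl27a at 0.400, the neuronal IL-1 receptor relative Il1rapl1 at 0.446, Cxcr6, a receptor on T cells, at 0.449, the IL-13 decoy receptor Il13ra2 at 0.455, and the mucosal chemokine Cxcl17 at 0.466. Ccl25, which guides T cells to thymus and gut, had 0.473 and Il11ra1, the receptor of Il11, 0.468. The IL-6 receptor chain Il6ra had 1.16 and the common gamma chain Il2rg 1.39. Il1rapl1 and Il13ra2 are among 6 members on the X chromosome, whose median was 0.573 times, against 1.62 for autosomal members. All genes of the X had a median of 0.491 times, against 1.04 for autosomes. E14tg2a is a male line, so gene copy number and level of the mark per copy cannot be told apart for these genes.

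**Figure D1:**
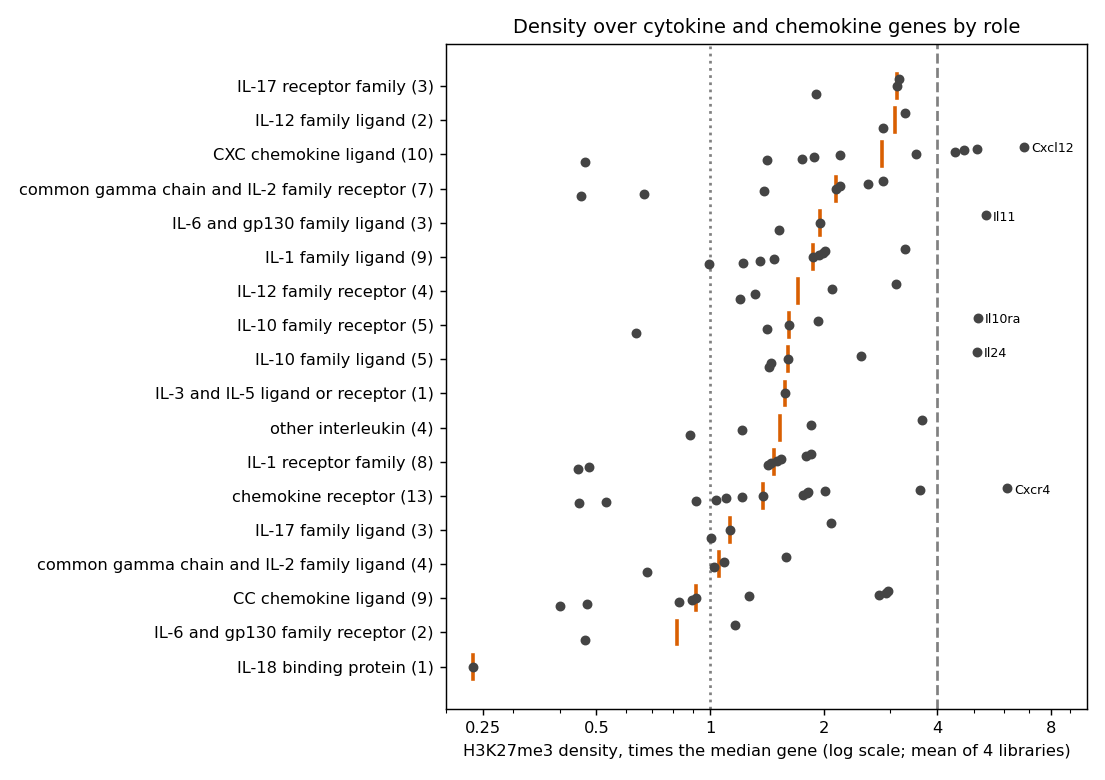
Each point is 1 of 93 genes at its H3K27me3 density relative to the median gene (x axis, log scale, mean of 4 libraries), in rows by role with the number of genes in brackets. Orange lines are group medians, the dotted line is the median gene and the dashed line 4 times it; 4 of the 8 genes right of the dashed line are CXC ligands (Cxcl12, Cxcl10, Cxcl1 and Cxcl5).

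The plot by role places 74 genes right of the median gene and shows that groups overlap widely. The plot of the 8 densest genes by library shows the spread between libraries, which is widest for Il11. Relative to each library's own median gene, the same 8 genes were marked in all 4 libraries and 4 others (Il4i1, Cxcr3, Cxcl2 and Ccl20) in some.

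**Figure D2:**
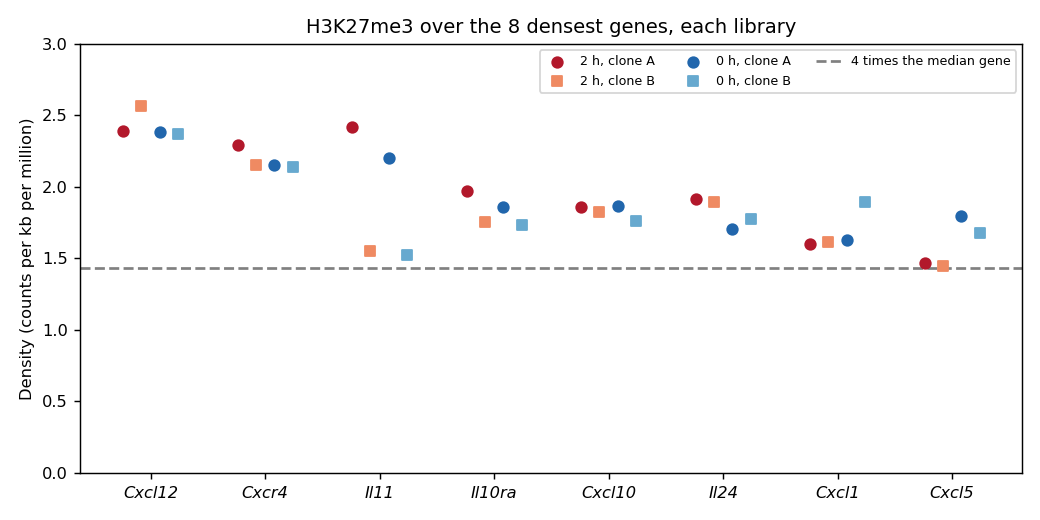
H3K27me3 density (y axis, counts per kb per 1000000 counts) of the 8 densest genes in each library, with 2 h left of 0 h (circles clone A, squares clone B). All points lie above the dashed limit of 1.43, and Il11 is split by clone.

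The 5 marked members with a promoter entry had 1 to 19 CG, and the members richest in CpG were not marked. Of the 10 members with 10 or more CG in the 250 bases upstream, 3 were marked (Cxcl12, Cxcr4 and Cxcl1), against 5.96% of protein-coding genes with as many. Of the 57 members with fewer, 2 were marked (Cxcl10 with 5 CG and Il11 with 1), against 3.87% of protein-coding genes. Il11 has another RefSeq start inside the gene with 12 CG, and Ccl25 has another with 0 CG. Il10ra, Il24 and Cxcl5 had no promoter entry. The rest of the CpG-rich set was less dense: Il4ra (17 CG), the receptor chain shared by IL-4 and IL-13, had 2.62 times the median gene, Il6ra (18 CG) 1.16, Il13ra1 (21 CG) 0.669 and Ccl25 (45 CG) 0.473. Among CpG-poor promoters the members' median was 1.77 times, against 1.02 for protein-coding genes.

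The table also lists shorter transcripts, which allowed 25 members to be divided into a 5′ and a 3′ part. Of these, 13 were denser in the 5′ part in all 4 libraries and 6 in the 3′ part, and the median ratio was 1.19. No share over other genes is given here, so these counts describe the 25 genes and not a trait of the family. Cxcl12 had 3.21 ± 0.144 in its 5′ part and 1.62 ± 0.154 in its 3′ part (SD over 4 libraries), a ratio of 1.99. Cxcr4 had 2.70 ± 0.127 and 1.86 ± 0.102, a ratio of 1.45. The mark thus leaned to the start of both genes, whose promoters hold many CG.

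The widest gap was in Il1rl2, the receptor for IL-36, whose first 1557 bp had 1.96 ± 0.224, against 0.614 ± 0.00953 for the rest of the gene. Il18 (ratio 2.34), Il1r2 (2.03) and Il12a, which encodes the p35 chain of IL-12 (1.76), also passed 1.5. Il1rl2 and Il18 have 1 CG in their upstream windows. Il12a has 2, and another RefSeq start 780 bases inside its interval has 15 CG upstream. A RefSeq start of Il1r2, 1325 bases inside the interval, has 14. A link between CpG and a dense 5′ part was not tested. Il12rb1 (0.590), Ccl25 (0.466) and Ccr4 (0.415) leaned to the 3′ part. Il18 overlaps the intervals of Bco2 and Tex12, and reads over shared bases cannot be told apart.

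**Figure D3:**
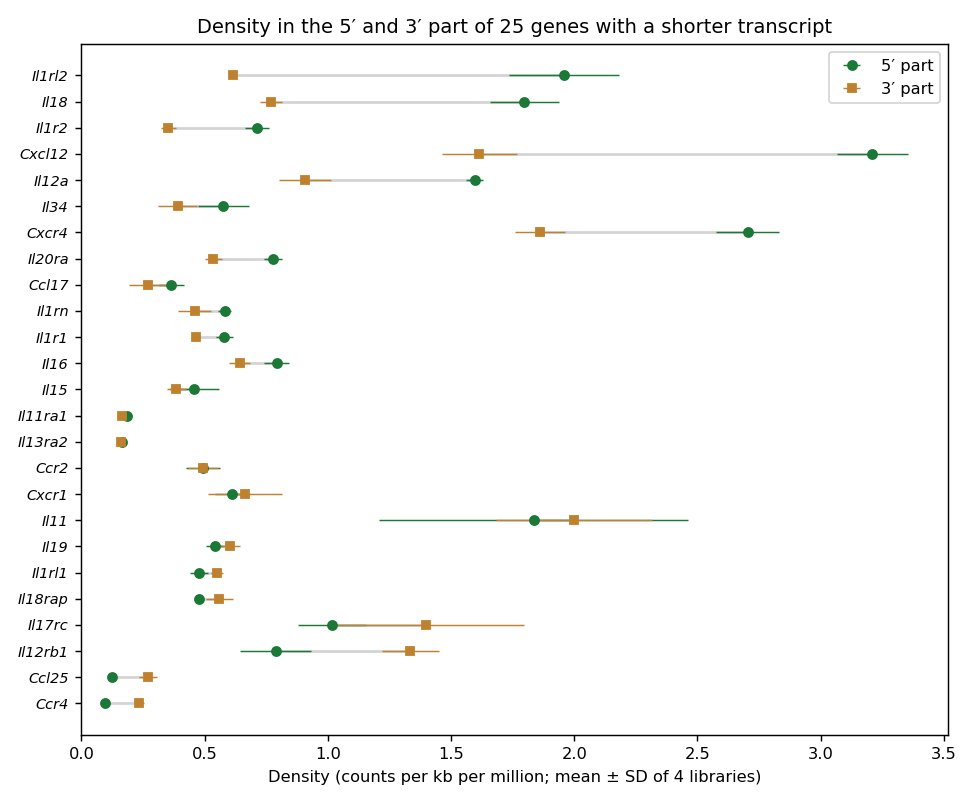
Density (x axis, counts per kb per 1000000 counts; mean ± SD of 4 libraries) in the 5′ part (circles) and 3′ part (squares) of the 25 genes with a shorter listed transcript, ordered by their ratio. The parts are furthest apart in Il1rl2 by ratio and in Cxcl12 by difference (3.21 against 1.62).

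The design's question was whether 2 h of RAF activation changed the mark. No member was called at 2 h against 0 h by edgeR's quasi-likelihood test at an adjusted p under 0.05 (0 of 93), and 0% of 50037 intervals were called. At an unadjusted p under 0.05 the count was also 0 members, where 0.376% of all intervals passed. With clone as a block, which compares each clone with itself, the counts were 0 members at the adjusted threshold and 2 at the unadjusted one (Cxcl5 and Il4ra), where 4.15% of intervals passed. DESeq2 called 0 members and gave 0 at the unadjusted threshold. The members' median change was 0.00 on the log2 scale. At 2 h, 24 members were higher in both clones, 20 were lower in both and 49 moved in opposite directions. No share of directions over all intervals is given here, so these counts are not a result about the family.

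The intervals around these changes show what the libraries could resolve. For 82 of 93 members the 95% interval of the 2 h change lay within 1.5-fold in either direction, and for 90 within 2-fold; with the block the counts were 91 and 92. A change of 2-fold in Cxcl12 lies outside its interval of -0.17 to 0.28 (log2), and the same holds for Cxcr4 (-0.23 to 0.33). The interval of Ccl20 ran from -1.21 to 1.00, since its clones differed.

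Among members whose direction was shared by the clones, even those lowest in p had small changes. Cxcl5 had a log2 change of -0.26 ± 0.13 (SE; adjusted p = 1.00 in edgeR without the block and unadjusted p = 0.0251 with it). Ccr1, a receptor of inflammatory CC chemokines, had -0.23 ± 0.14, with densities of 0.306 and 0.301 at 2 h, against 0.366 and 0.343 at 0 h. Its groups did not overlap, and none of these values passed the test. Ccr2 had -0.16, Il1f6 -0.13 and Il18bp -0.46, the last from 18 to 28 counts per library.

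On the other side, Cxcr1, a receptor for CXC ligands of neutrophils, had a log2 change of 0.27 ± 0.18 (SE), with 0.691 and 0.690 at 2 h, against 0.654 and 0.493 at 0 h. Ccl22, a ligand of CCR4, had 0.18, Il1b 0.16, Il11ra1 0.15 and Il24 0.13. By role, the median change at 2 h was -0.02 for CXC ligands, 0.08 for CC ligands and 0.00 for chemokine receptors.

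Clone, by contrast, did separate the libraries. Between clone A and clone B, 28 of 93 members (30.1%) were called by edgeR's quasi-likelihood test at an adjusted p under 0.05, where 27.5% of all intervals and 25.4% of protein-coding genes were called. Of the 28, 21 (22.6%) were higher in clone A, against 17.3% of intervals, and 7 (7.53%) lower, against 10.3%. Over protein-coding genes 16.8% were higher in clone A and 8.67% lower. The share is near the background, so it is not a result about the family. All 28 differed in the same direction at both times, which a call on these same 4 libraries favours, so this is not separate support. The 2 libraries of a clone are its 2 times, and each clone is 1 line, so differences of clone and of culture or chromatin preparation cannot be told apart.

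Most of the differences were small, and 3 of the 28 passed 1.5-fold. Ccl20 (chr1:83116766-83119167) was lowest in clone A relative to clone B. Its density was 0.652 and 0.633 in clone A (2 h and 0 h), against 1.41 and 1.55 in clone B, with 107 to 302 counts per library. The clones did not overlap, and the log2 difference was -1.18 ± 0.13 (SE; edgeR, adjusted p = 1.90e-16). The nearest measured genes, Daw1 and Krtap28-13, at log2 differences of -0.02 and 0.49, were not called.

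Ccl27a had 0.0846 and 0.0962 in clone A, against 0.197 and 0.195 in clone B (log2 -1.10 ± 0.23). It rests on 32 to 79 counts per library and has near-identical copies in the genome, so its reads may be split among them and the value is uncertain. Il11 was higher in clone A, with 2.42 and 2.20, against 1.55 and 1.52 in clone B (log2 0.61 ± 0.06; edgeR, adjusted p = 2.33e-20). In its 5′ part the log2 difference was 1.01 at 2 h and 0.75 at 0 h, and in its 3′ part 0.44 and 0.36. Of 8 tested genes within 60000 bp of Il11, 5 were called higher in clone A, among them Tmem190, which overlaps its start (0.99), Shisa7 (0.75) and Fam71e2 (0.48). The other 3, Kmt5c (0.07), Ube2s (0.06) and Brsk1 (-0.05), were not called.

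Other members higher in clone A were Il34, a ligand of the CSF1 receptor (log2 0.51 ± 0.06), Il27ra, the receptor of IL-27 (0.52 ± 0.08), Il17re (0.42 ± 0.07) and Il6ra (0.35 ± 0.06). Il4i1 had 0.49 and Il6 0.47. Il34 had densities of 0.506 and 0.509 in clone A, against 0.369 and 0.355 in clone B. Of 6 tested genes within 60000 bp, 3 were called higher, Mtss2 (0.64) among them. Another of the 3, Gm39250 (0.46), lies inside the Il34 interval and shares its reads. Of the members lower in clone A, Il4ra and Il21r had the smallest p after Ccl20 and Ccl27a. These neighbouring receptor genes on chromosome 7 both had a log2 difference of -0.28 ± 0.06. Il1f5, the antagonist of the IL-36 receptor, had -0.33 ± 0.11, a call that was lost in DESeq2 and without either 0 h library (adjusted p = 0.0754 to 0.0897).

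Il17rc shows that a whole-gene value can hide opposite differences. Over the gene the log2 difference between clone A and clone B was 0.01 ± 0.07. Its first 8625 bp were higher in clone A (0.35 ± 0.08; edgeR, adjusted p = 1.22e-04). Its remaining 3084 bp had 0.988 and 1.13 in clone A, against 1.76 and 1.72 in clone B, log2 differences of -0.79 at 2 h and -0.61 at 0 h. The neighbouring Il17re on the 5′ side was higher in clone A, and Creld1 on the 3′ side lower (-0.73). The difference between the parts was not tested. Il17rc was noticed after its values were seen.

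**Figure D4:**
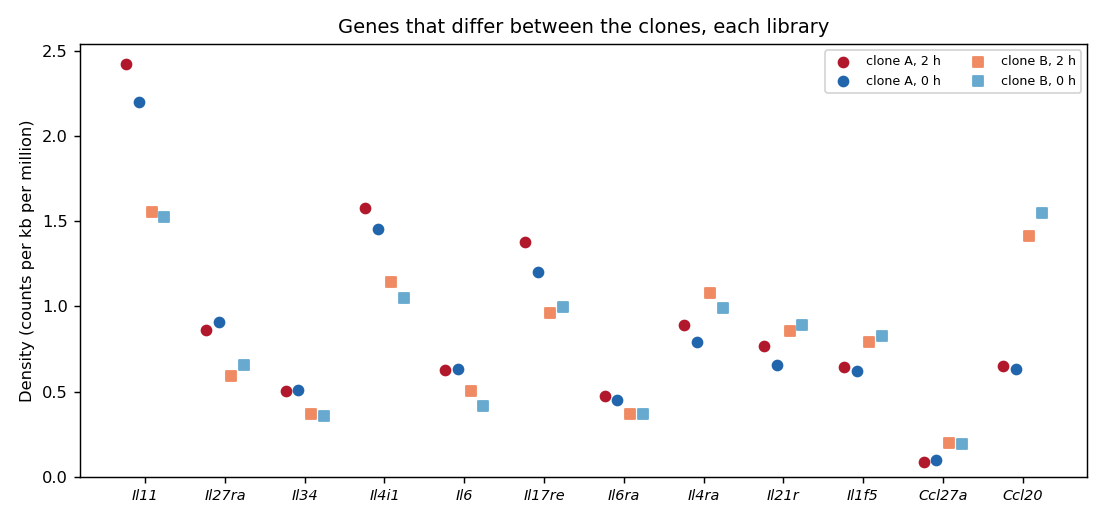
H3K27me3 density (y axis, counts per kb per 1000000 counts) of 12 genes called between the clones, with clone A (circles) left of clone B (squares) and 2 h left of 0 h within a clone. Clone A lies above clone B from Il11 to Il6ra and below it from Il4ra to Ccl20, with no overlap in any gene shown.

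The densest genes stood apart in the difference between the clones. With 1 interval per gene, the densest 10% had a median log2 difference of 0.17, and 52.7% were called. The medians of the other 9 groups of that size lay between -0.05 and 0.02 in no steady order, with 2.85% to 38.5% called. The part of density in the calls of dense members was not tested. Il10ra and Il11 were the called genes among the 8 marked members. The call of Il10ra (log2 0.16; edgeR, adjusted p = 0.0292) was lost with DESeq2 size factors, in DESeq2, without either 2 h library and without the 0 h library of clone B (adjusted p = 0.0730 to 0.313). Cxcl12 and Cxcr4 had log2 differences of -0.03 and 0.07 and were not called.

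**Figure D5:**
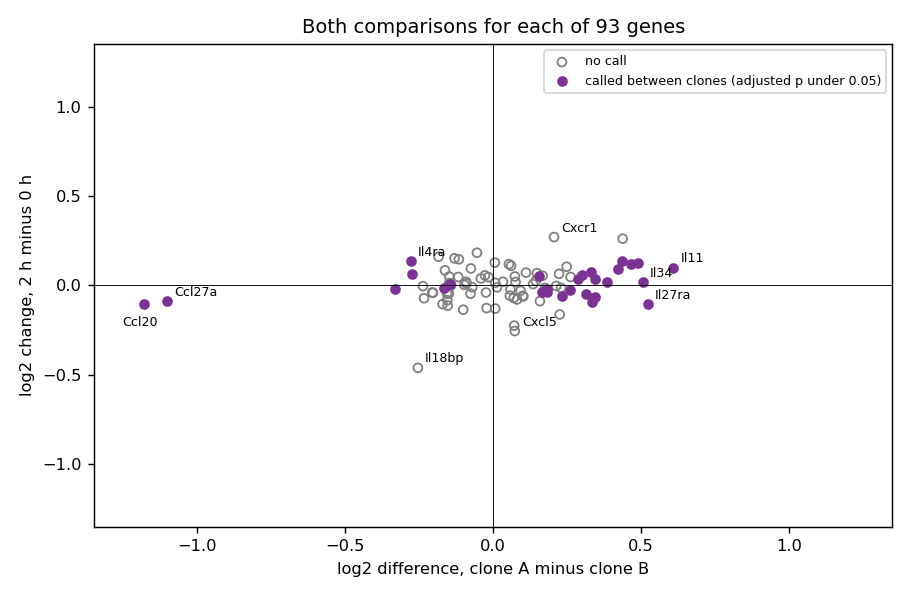
Log2 change at 2 h against 0 h (y axis) and log2 difference between clone A and clone B (x axis) for each of 93 genes on equal scales, filled where the clones differ at an adjusted p under 0.05. Points spread more along the clone axis, from -1.18 (Ccl20) to 0.61 (Il11), than along the time axis, from -0.46 (Il18bp) to 0.27 (Cxcr1).

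Further genes of the pathway came from a list of 70, of which 36 were measured. Their median was 1.36 times the median gene. The 11 genes of atypical chemokine receptors and of fractalkine, XC and platelet chemokines had a median of 1.81 and a range of 1.12 to 2.85. The 9 genes of IL-1 receptor signalling and NF-kB had a median of 0.448, with Irak1 at 0.153 and Myd88 at 2.74. The 7 JAK, STAT and SOCS genes had 0.834, led by the lymphoid kinase Jak3 at 3.90. None of the 36 was called at 2 h against 0 h by edgeR, and between the clones 9 (25%) were called higher and 6 (16.7%) lower in clone A, against 17.3% and 10.3% of all intervals.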

How the data were processed

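H3K27me3 was profiled by ChIP-seq in 8 samples (4 groups of 2), of which the 4 H3K27me3 libraries were used. Per the file headers, the authors' table gives raw counts for 50398 transcript intervals (introns included) of chromosomes 1 to 10, X, Y and M, and the counts were used as deposited. Bowtie2, bedtools and mm10 are named per the submitters' processing notes; their versions are not given in these sources. A further 12 per-library columns were not used. Counting by interval ignores strand and transcript, so overlapping genes share reads, and 24 members overlap the interval of another gene.

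Intervals were matched to RefSeq genes of GRCm38.p6 where the overlap reached 0.5 of the union, and 1 interval was kept per gene. Density was the count divided by interval length in kb and by the column total in units of 1000000, averaged over libraries. Counts of 50037 intervals were tested with edgeR 4.0.16 (quasi-likelihood, TMM factors, filterByExpr), Benjamini-Hochberg adjusted over all of them and read at 0.05. Neither the clone block (2 h against 0 h) nor time (clone A against clone B) was in the model; both were alternatives, as were DESeq2 1.42.0, other factors, no filter and leaving out each library. The fits were tested on simulated counts. Per the labels, each clone gave a library at each time, which pairs the libraries by clone; deviations of the 2 libraries of a clone from their time means correlated at 0.514 across 50037 intervals, which are not independent. Nothing in the labels says that the libraries came from separate cultures, so p-values reflect a spread that may be technical.

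Promoters are the 250 RefSeq bases before the listed start nearest to the interval's own, within 1000 bp. For the 5′ and 3′ parts, the count of a shorter transcript interval that shares 1 end with the gene (within 50 bp) was subtracted from the gene's count; a read across the boundary is counted in the shorter interval, and parts are at least 1000 bp. Clusters are members no more than 500000 bp apart.

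Members, roles and gene lists were chosen with earlier results of these data known. Genes named are the members at 4 times the median gene, the 6 least dense, the 5 per direction and comparison with the smallest p that kept their direction in both clones or at both times, and a panel of which 18 genes were measured. Other genes named are the extremes of a role group, a cluster or a comparison of parts, picked after their values were seen. Values of a few genes are not reported here. R 4.3.3, Python 3.11.15 and Matplotlib 3.10.9 were used.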

Additional observations from a re-analysis of the deposited data

Results flagged for a closer look

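Several median changes over 2 h had opposite signs in the clones. Each is given on the log2 scale for clone A, then for clone B, then as clone A minus clone B. A clone has 1 library per time, so the difference between the clones was not tested. Over all 93 members the medians were 0.0433 and -0.0262 (difference 0.0695), while protein-coding genes had 0.00947 and 0.00997. The 8 marked members had 0.0657 and -0.00409 (difference 0.0698), and all receptors 0.0537 and -0.0401 (difference 0.0938).

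By role, CC chemokine ligands had 0.156 and -0.018 (difference 0.174), and chemokine receptors 0.0608 and -0.0924 (difference 0.153). The IL-17 receptor genes had 0.142 and -0.0163 (difference 0.159), the IL-10 family receptors 0.0561 and -0.038 (difference 0.0941), and the IL-1 receptor family 0.0282 and -0.0444 (difference 0.0726). Receptors of the common gamma chain and IL-2 family had 0.0302 and -0.0323 (difference 0.0625). The IL-17 ligands ran the other way, with -0.0158 and 0.03 (difference -0.0458).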

How the results depend on the processing

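The count of 8 marked members was the same with the median over all matching intervals, an overlap of 0.8, intervals of at least 1000 bp and without any 1 library. It was 30 at a limit of 2 times the median gene, 0 at 8 times and 13 relative to the median protein-coding gene, an alternative added after seeing the data. The members' median was 1.99 times the median protein-coding gene and 1.71 times among genes of 1000 to 50000 bp (both added after seeing the data), against 1.59. The paired fit, with clone letter as replicate block, called 0 members over 2 h, as did each other setting, with 0 to 3 members at an unadjusted p under 0.05. Between clones, edgeR called 28 members (30.1%, against 27.5% of intervals) and DESeq2 17 (18.3%, against 17.5%; all among the 28, and 10 members had no adjusted p there). With 1 library left out it was 18 to 23 members. The count of 18 (19.4%, against 19.2% of intervals; 11 higher and 7 lower in clone A) came without the 2 h library of clone B, and 17 of them were among the 28; the cause was not tested. Of the 28, 13 lost the call in 1 or more settings, among them the named genes Il10ra, Cxcl2, Il7, Il18, Il1f5 and Il1a, and 0 changed sign. The 2 libraries per group, and the low counts of Il18bp and Ccl27a, limit what could be resolved.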
